A study of Mus musculus with 20 samples.

Results

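The 746 sites described here were listed as edited at the same nucleotide in hippocampus and in cerebellum of mice expressing APOBEC1-YTH, and were not listed in cortex. They were chosen from 25978 sites listed in any of the 3 brain regions and lie in 511 of the 3731 genes with a listed site. Of the 746 sites, 57 lie in 48 genes for which the cortical list holds no site at all, and 689 lie in 463 genes that have other sites in cortex. Listing itself chose these sites, so their absence from cortex and the levels that decide whether a site is listed are described without a test. A site that a list lacks may still carry the mark: the lists start at a level of 1%, and neither the read depth at a site nor the expression of its gene is given.

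N6-methyladenosine (m6A) is a methyl mark on adenosines inside messenger RNA. It is added by a nuclear methyltransferase complex, recognised by proteins with a YTH domain, and found mostly near stop codons and in 3′ untranslated regions, where it affects RNA decay, transport and translation. In brain it is abundant and is known to mark many transcripts of synaptic proteins. APOBEC1-YTH joins a cytidine deaminase to a YTH domain, so a cytidine beside a methylated adenosine is converted to uridine and is read as a C-to-T change in RNA-seq. The editing level, taken as the share of reads with that change, rises with methylation, though it is not the methylated share itself.

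The hippocampal, cerebellar and cortical lists each rest on 4 libraries of APOBEC1-YTH mice, which carry the same 4 animal numbers in every region. APOBEC1-YTHmut mice, whose fusion has a mutated YTH domain, were taken as the background, with 2 hippocampal, 3 cerebellar and 3 cortical libraries. Tamoxifen at 20 mg/kg was given to mice of both genotypes once per 24 h on 5 days, and whole regions, 20 libraries in total, were taken 7 days after the last dose. Poly(A) RNA was sequenced from 900 ng of total RNA per library. The promoter and the cell types that drive the transgene, and the age of the mice, are not given in the labels. Each list holds 1 pooled level per site, so no spread between animals can be given, and the intervals below are exact 95% intervals over sites, which treat sites as independent and do not cover animals. The tissue is bulk, so a lower level from fewer cells of a type and one from less methylated RNA per cell cannot be told apart.

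The 746 sites are a small part of either region's list, and most of them have low levels. They made up 5.54% of hippocampal and 6.55% of cerebellar sites. Among the 5688 sites listed in both regions, 13.1% were missing from cortex. Their median level was 2.17% in hippocampus (interval 2.03 to 2.27) and 2.74% in cerebellum (2.56 to 2.93). At the 4942 sites listed in all 3 regions the medians were 3.92% in hippocampus and 3.99% in cerebellum. Both levels were under 2% at 149 of the 746 sites (20.0%), against 5.28% of sites listed in all 3 regions. Both levels reached 5% at 49 sites (6.57%), against 25.1%.

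The share of shared hippocampal and cerebellar sites that cortex did not list was highest where levels were low. Where the lower of the 2 levels was 1% to 1.5%, 245 of 815 sites (30.1%, interval 26.9 to 33.3) were not listed in cortex. The share was 12.5% (10.8 to 14.4) between 2% and 3%, where it rested on 171 of 1369 sites. It was 4.19% (3.01 to 5.66) between 5% and 10%, or 40 of 955 sites. Between 10% and 20% it was 4.31% (1.99 to 8.02), or 9 of 209 sites, and at 20% or more it was 0 of 124 sites, which allows a share of up to 2.42% at 3 counts (exact upper limit 2.93%). Levels decide listing, so this gradient is a description of the lists.

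**Figure D1:**
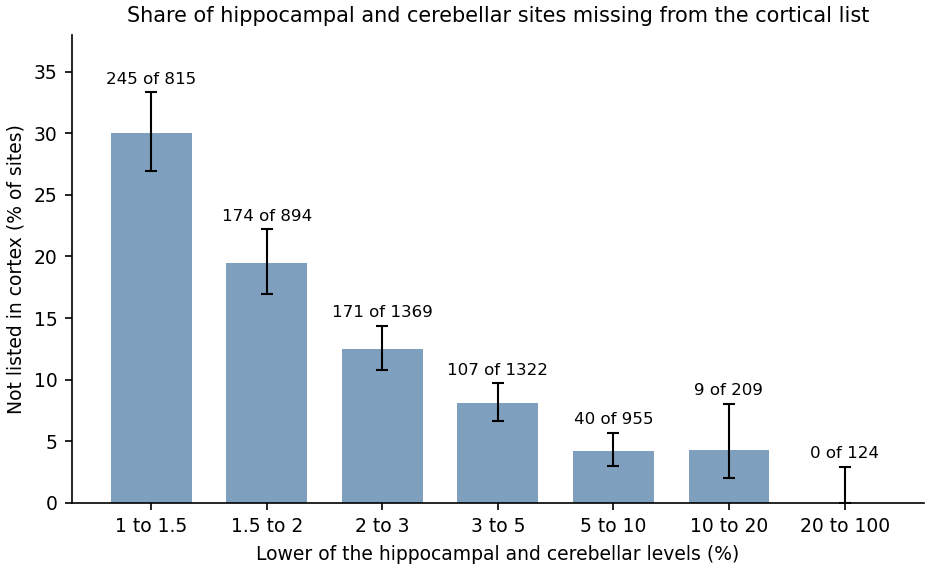
Share of sites listed in hippocampus and cerebellum that cortex did not list (vertical axis, percent) by the lower of the 2 levels (horizontal axis, percent), with counts above the bars and exact 95% intervals over sites. The share is 30.1% for levels of 1% to 1.5% and 4.19% for levels of 5% to 10%.

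Some listed levels were close to the limit of 1%. Just inside it were the mitochondrial fission factor gene Mff, with 1.53% in hippocampus and 1% in cerebellum, and Scg2, a precursor of secreted neuropeptides, with 1.01% in hippocampus and 2.42% in cerebellum. Just outside it was a site in Pam, which encodes a peptide-amidating enzyme. It had 1.75% in hippocampus, 4.35% in cerebellum and 1% in cortex. Of the 4942 sites listed in all 3 regions, 65 had a cortical level under 1.1% and 324 under 1.5%.

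More of the 746 sites had the higher level in cerebellum than in hippocampus. The log2 ratios were not more spread than elsewhere, with a standard deviation of 0.84, against 0.92 at sites listed in all 3 regions. The hippocampal level was the higher one at 263 sites (35.3%) and the cerebellar one at 478 (64.1%), and 5 were equal. At sites listed in all 3 regions the split was even, with 49.76% higher in hippocampus and 50.04% higher in cerebellum. The median log2 ratio of hippocampus over cerebellum was −0.27 (interval −0.36 to −0.19), against −0.00 at sites listed in all 3 regions. The level was at least 2-fold higher in hippocampus at 39 sites (5.23%), against 11.4% of all sites listed in both regions, and at least 2-fold higher in cerebellum at 20.6% of the sites, against 15.2%. Those are shares of single pooled values, with no replicate check for any site. The 746 sites were chosen by their absence from cortex, which may itself shift the split between hippocampus and cerebellum. The difference from sites listed in all 3 regions was not tested.

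**Figure D2:**
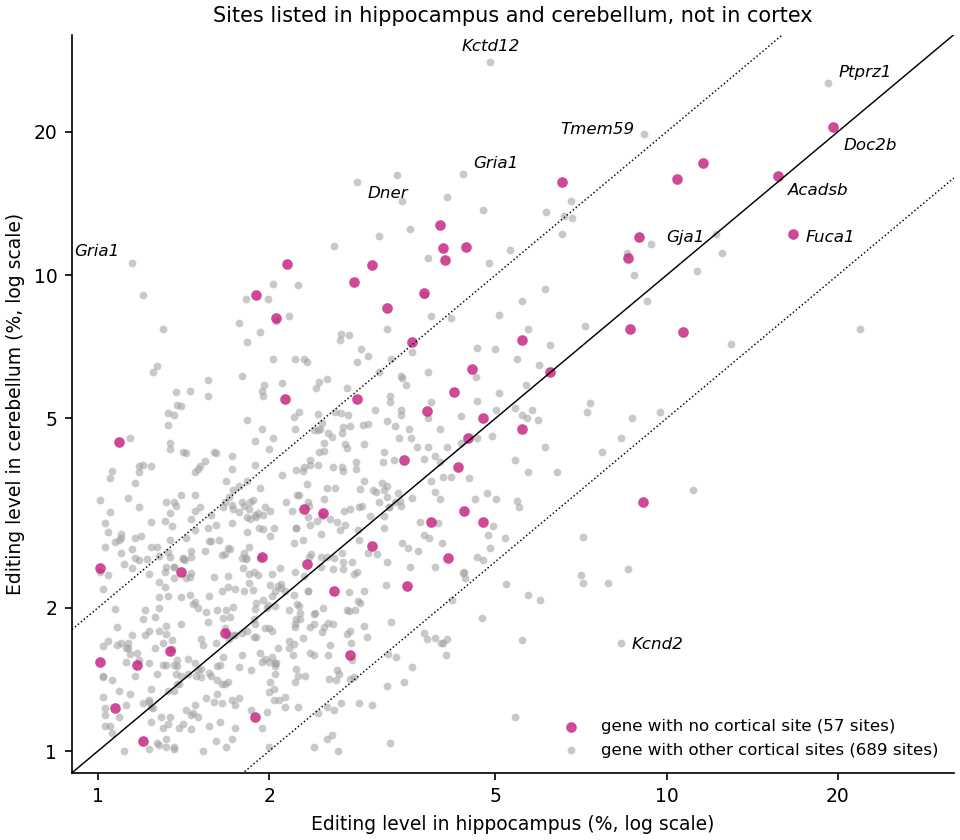
Editing level of each of the 746 sites in hippocampus (horizontal axis, percent, log scale) and cerebellum (vertical axis, percent, log scale), coloured by whether the gene has any cortical site. The solid line marks equal levels and the dotted lines 2-fold differences; 39 sites (5.23%) lie on or below the lower dotted line and 20.6% on or above the upper one.

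The 48 genes with no cortical site carried 57 of the 746 sites (7.64%, interval 5.84 to 9.79). Many of them have few sites: 22 had a single site in hippocampus and in cerebellum, and 44 had 1 site shared at the same nucleotide. In 4 of the 48 genes hippocampus had more sites than cerebellum, and in 21 it had fewer. Median levels at these 57 sites were 3.74% (2.82 to 4.30) in hippocampus and 5.19% (3.23 to 7.58) in cerebellum, against 2.07% in hippocampus and 2.63% in cerebellum at the other 689. The 2 classes are themselves set by listing, which depends on level, so the split may shift these medians. Their difference was not tested. In the whole series 1692 genes had a site in both hippocampus and cerebellum, of which 84 had none in cortex, and 48 of those 84 shared at least 1 nucleotide.

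Doc2b had the most shared sites of these 48 genes. It encodes a calcium sensor with C2 domains that acts in vesicle release at synapses, and lies on the minus strand of chromosome 11. The hippocampal list held 8 of its sites, the cerebellar list 23 and the cortical list 0. The 7 sites common to both regions span 2489 nt, between 998 and 3487 nt from the annotated 3′ end. The highest was at position 75769274 (mm10), with 19.61% in hippocampus and 20.51% in cerebellum. A site 6 nt away, at position 75769268, had 2.06% in hippocampus and 8.11% in cerebellum. The next sites along the transcript's upstream direction had 10.45% in hippocampus and 15.91% in cerebellum at position 75769956, and 3.74% in hippocampus and 9.18% in cerebellum at position 75770095. The 3 most upstream sites had 6.54%, 4.07% and 11.58% in hippocampus, against 15.66%, 10.78% and 17.19% in cerebellum. All 7 were higher in cerebellum, with means of 8.29% in hippocampus and 13.9% in cerebellum, and the ranges of the regions overlap.

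**Figure D3:**
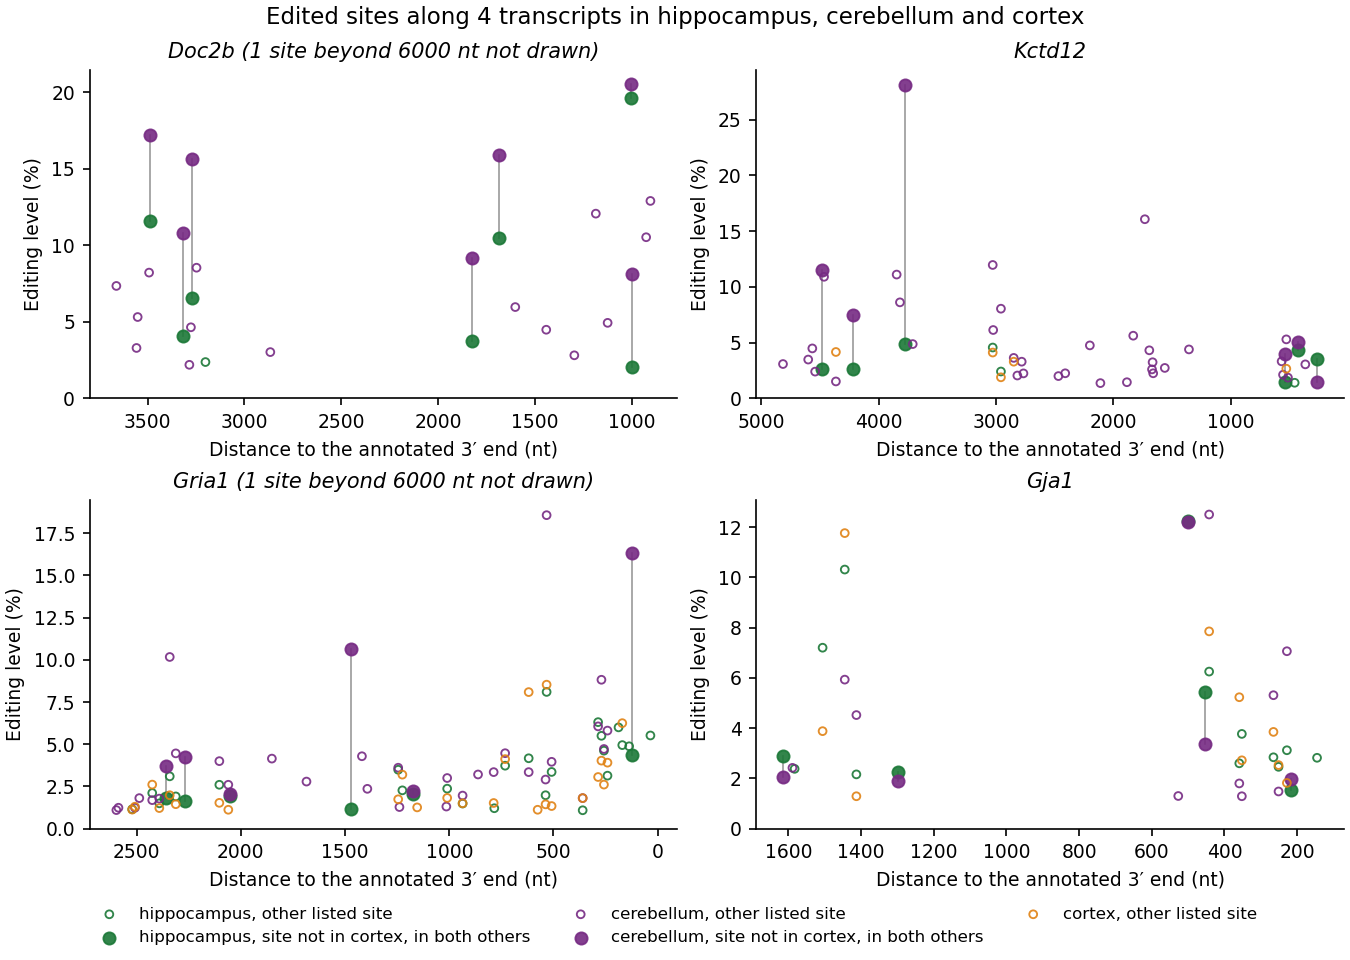
Editing level (vertical axis, percent) of the listed sites of Doc2b, Kctd12, Gria1 and Gja1 (1 site each of Doc2b and Gria1 lies farther upstream and is not drawn) by distance to the gene's annotated 3′ end (horizontal axis, nt, upstream to the left), in hippocampus, cerebellum and cortex. Filled points joined by a line are the sites described here; Doc2b has 7 of them and no cortical point, and Gja1 has 5 among 9 cortical sites.

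A few single sites in this class had high levels in both regions. Acadsb, which encodes a mitochondrial acyl-CoA dehydrogenase of isoleucine breakdown, had 15.69% in hippocampus and 16.13% in cerebellum at position 131445204 of chromosome 7. Fuca1, which encodes the lysosomal enzyme that removes fucose, had 16.67% in hippocampus and 12.20% in cerebellum, as the gene's single site in each region. Tmco1, which encodes a calcium channel of the endoplasmic reticulum, had 8.93% in hippocampus and 12% in cerebellum. The ubiquitin ligase gene Ube4a had 10.71% in hippocampus and 7.58% in cerebellum. Fam174b had 8.57% in hippocampus and 10.87% in cerebellum, and Ngrn, a gene for a mitochondrial protein, had 8.62% in hippocampus and 7.69% in cerebellum. At each of these 6 sites the regions differed by less than 2-fold.

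Other genes of the class carried their sites mostly in cerebellum, and hippocampus shared 1 of them. Icmt, whose enzyme methylates the ends of prenylated proteins, had 1 hippocampal and 18 cerebellar sites, and the shared one had 3.03% in hippocampus and 10.48% in cerebellum. Shisa6, an auxiliary subunit of AMPA receptors, had 1 hippocampal and 30 cerebellar sites, the shared one with 3.57% in hippocampus and 7.25% in cerebellum. Homer3, a scaffold of metabotropic glutamate receptors, had 1 hippocampal and 6 cerebellar sites, the shared one with 4.44% in hippocampus and 11.48% in cerebellum. B3galt5, a galactosyltransferase gene, had 4% in hippocampus and 12.73% in cerebellum. Icmt and Shisa6 were singled out after their values were seen, for their numbers of cerebellar sites.

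In 3 more genes without a cortical site, 2 sites were shared. Spock3, which encodes the proteoglycan testican-3, had 4.76% and 4.23% in hippocampus against 3.03% and 5.67% in cerebellum. Efr3b, which anchors a phosphatidylinositol kinase at the plasma membrane, had 4.55% and 4.12% in hippocampus against 6.35% and 2.55% in cerebellum. In both genes each region was the higher one at 1 site. Dgkg, a diacylglycerol kinase gene, had 1.09% and 1.67% in hippocampus against 4.46% and 1.77% in cerebellum, higher in cerebellum at both.

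Of the 57 sites, 16 were higher in hippocampus, 40 in cerebellum and 1 was equal. At least 2-fold differences were found at 1 site toward hippocampus and 16 toward cerebellum. The first was in Hexim1, the gene of an inhibitor of transcription elongation, with 9.09% in hippocampus and 3.33% in cerebellum. It was named after its value was seen, as were Ccnh, the gene of cyclin H, with 2.15% in hippocampus and 10.53% in cerebellum, and Surf4, which encodes a cargo receptor of the endoplasmic reticulum, with 1.90% in hippocampus and 9.09% in cerebellum.

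Most of the 746 sites lie near a nucleotide that cortex did list. For the 689 sites in genes with other cortical sites, the median distance to the nearest of those was 46 nt (interval 38 to 52). It was at most 10 nt for 116 sites (16.8%), at most 50 nt for 369 (53.6%) and at most 200 nt for 563 (81.7%), and the largest was 5843 nt. Sites listed in cortex and cerebellum but not in hippocampus had a median distance of 58.5 nt to the nearest hippocampal site (52 to 66), and 46.3% of them were within 50 nt. Sites listed in cortex and hippocampus but not in cerebellum had 82 nt to the nearest cerebellar site (76 to 89), with 39.0% within 50 nt. Of those 2 classes, 13.9% and 31.8% of sites lie in genes with no site in the missing region, against 7.64% here. The cortical list is the longest of the 3, and no test of these distances was made.

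**Figure D4:**
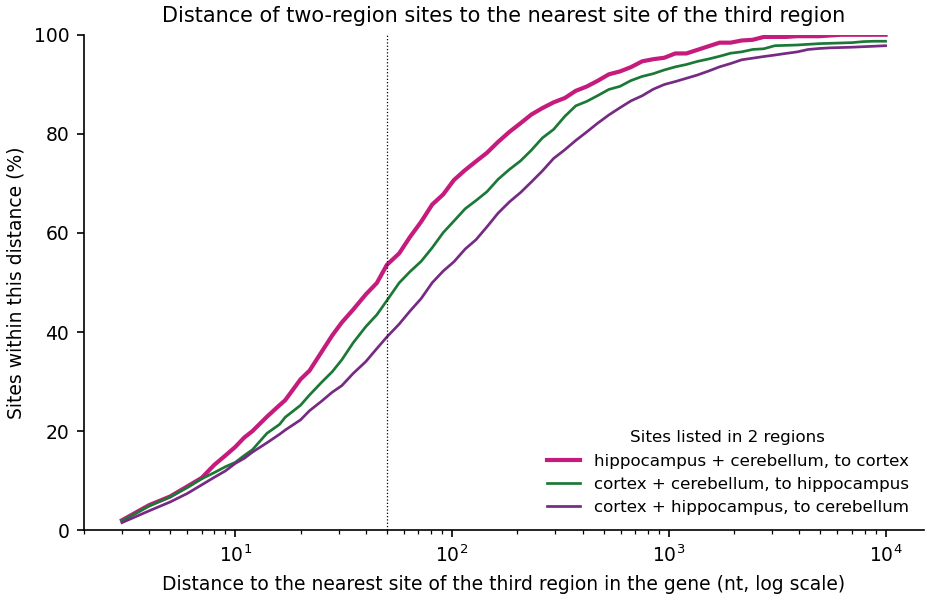
Cumulative share of sites (vertical axis, percent) within a distance of the nearest site of the third region in the same gene (horizontal axis, nt, log scale), for the 3 classes of sites listed in 2 regions; the dotted line marks 50 nt. At 50 nt the shares are 53.6% for sites missing from cortex, 46.3% for those missing from hippocampus and 39.0% for those missing from cerebellum.

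The cortical neighbours were themselves edited at modest levels. For the 369 sites with one within 50 nt, the neighbour's median cortical level was 2.60% (interval 2.41 to 2.86). In 178 pairs (48.2%) the neighbour was listed in all 3 regions. There the neighbour's median was 3.08% in hippocampus, 4.19% in cerebellum and 3.16% in cortex, while the site missing from cortex had 2.05% in hippocampus and 2.34% in cerebellum. The site missing from cortex was the lower of the pair in both regions in 106 of the 178 pairs (59.6%). Listing depends on level and these neighbours were kept because all 3 regions list them, so the choice of pairs itself favours this order. At least 1 listed site of any region lay within 50 nt of 66.0% of the 746 sites, against 76.9% of sites listed in all 3 regions, and another of the 746 lay that close for 69 of them (9.25%).

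The 463 genes of this class are genes with many sites. Their medians were 6 sites in hippocampus, 7 in cerebellum and 7 in cortex. Over all 1608 genes with sites in all 3 regions they were 4 in hippocampus, 3 in cerebellum and 5 in cortex. Of the 463, 177 had at least 10 cortical sites and 47 had 1. In 96 of them (20.7%) hippocampus and cerebellum each had more sites than cortex, against 7.96% of the 1608. Each of the 463 holds at least 1 site that counts for hippocampus and cerebellum and not for cortex, so the choice of genes itself raises this share. A gene with more sites also has more chances to hold such a site, so the choice raises the median site numbers as well. At sites common to all 3 regions the genes' levels were close between hippocampus and cortex: the median log2 ratio was −0.04 over 356 genes that have such sites, against −0.03 over 1310 genes in all. For cerebellum over cortex it was 0.10 (interval 0.02 to 0.20), against 0.02 (−0.02 to 0.08). These genes were picked by listing, which depends on level, and the ratios were not tested.

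Several genes of excitatory and inhibitory transmission had 6 or more such sites. Gria1, which encodes the AMPA receptor subunit GluA1, had 31 hippocampal, 38 cerebellar and 26 cortical sites. Its 6 sites missing from cortex had 1.83%, 1.61%, 1.95%, 1.15%, 2.07% and 4.39% in hippocampus, against 3.70%, 4.23%, 2.08%, 10.63%, 2.22% and 16.33% in cerebellum, in order along the transcript. All 6 were higher in cerebellum, 4 of them by less than 3-fold, and the site at position 57328772 of chromosome 11 had the lowest ratio of all 746, with a log2 of −3.21. At the 18 Gria1 sites common to all regions the means were 3.36% in hippocampus, 5.06% in cerebellum and 2.93% in cortex.

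Kctd12, which encodes an auxiliary subunit of GABA-B receptors, had 9 hippocampal, 40 cerebellar and 5 cortical sites. The highest cerebellar level of all 746 sites, 28.09%, was at its position 102980356 on chromosome 14, with 4.90% in hippocampus. The other 5 had between 1.51% and 4.35% in hippocampus, against 1.5% to 11.54% in cerebellum. At 5 of the 6 the cerebellar level was higher, and the site nearest the 3′ end was the exception, with 3.57% in hippocampus and 1.5% in cerebellum. Cabp7, the gene of a calcium-binding protein of the Golgi membrane, had 9 hippocampal, 10 cerebellar and 1 cortical site. Its 6 sites missing from cortex had 1.51% to 2.93% in hippocampus against 2.94% to 5.80% in cerebellum, higher in cerebellum at each. The single Cabp7 site common to all regions had 7.67% in hippocampus, 7.96% in cerebellum and 2.35% in cortex. Cnr1, which encodes the cannabinoid receptor CB1, had 15 hippocampal, 10 cerebellar and 8 cortical sites. Its 6 sites split evenly, 3 higher in each region, and the highest had 9.72% in hippocampus and 5.15% in cerebellum.

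Genes of ion transport, transport along the cytoskeleton and signalling followed with 6 to 9 sites each. Slc24a2, which encodes a potassium-dependent sodium-calcium exchanger, had the most, 9 sites, with a mean of 1.85% in hippocampus and 2.97% in cerebellum, and cerebellum was higher at 8. It also had 45 hippocampal, 44 cerebellar and 44 cortical sites in all, and the 17 common ones averaged 2.48% in hippocampus, 4.49% in cerebellum and 2.54% in cortex. Caln1, the gene of the calcium-binding protein calneuron, had 7 sites with means of 1.88% in hippocampus and 2.11% in cerebellum. Myo5a, which encodes a myosin that carries organelles into dendritic spines, had 6 sites with 1.01% to 2.19% in hippocampus against 2% to 3.45% in cerebellum, all 6 higher in cerebellum. Nefl, the light neurofilament gene, had 6 sites with means of 1.77% in hippocampus and 2.84% in cerebellum, 5 of them higher in cerebellum. Map2k4, a kinase gene of the JNK pathway, split evenly over its 6 sites, and the ubiquitin ligase gene Trim2 had 4 of its 6 higher in cerebellum.

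Outside those genes, some single sites had high levels in both regions. Ptprz1, the gene of a receptor tyrosine phosphatase of glial progenitors, had 19.23% in hippocampus and 25.33% in cerebellum at position 23003973 of chromosome 6, 351 nt from the nearest cortical site. The phosphatase gene Dusp28 had 12.50% in hippocampus and 11.11% in cerebellum, 22 nt from one, and Tmem59 had 9.12% in hippocampus and 19.78% in cerebellum, 41 nt from one. The 3 Tmem59 sites common to all regions averaged 2.53% in hippocampus, 2.99% in cerebellum and 3.63% in cortex. The highest hippocampal level of the 746 sites, 21.88%, was in Arxes2 with 7.69% in cerebellum; the gene has a close copy, Arxes1, so reads may be shared between them. It was named after its value was seen.

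Some sites lay far from any cortical site of their gene; the 6 farthest with at least 2% in both regions, 1 site a gene, are given here. Hspa4l, the gene of a chaperone of the Hsp110 family, had 6.82% in hippocampus and 13.16% in cerebellum at a site 5843 nt from the nearest cortical one. Aktip, whose product works in endosome transport, had 2.72% in hippocampus and 4.42% in cerebellum 5072 nt away. Nsd2, which encodes a histone H3 lysine methyltransferase, had 9.38% in hippocampus and 11.63% in cerebellum 3768 nt away. Yipf6, Pptc7 and Cds2 followed at 2712, 2087 and 1668 nt, with 5.00%, 2.06% and 2.23% in hippocampus against 6.98%, 8% and 3.90% in cerebellum. At these 6 sites the cerebellar level was the higher one. Some sites with a level under 2% lay between these distances and were not all higher in cerebellum: Syt7, a synaptotagmin gene named after its value was seen, had 1.55% in hippocampus and 1.29% in cerebellum 2480 nt from a cortical site.

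The largest ratios toward hippocampus were in Kcnd2, Arhgap5, Mef2a, Tial1, Pkp4 and Hpcal1. Kcnd2, which encodes the A-type potassium channel Kv4.2, had 8.33% in hippocampus and 1.69% in cerebellum, a log2 ratio of 2.30. It had 37 hippocampal, 11 cerebellar and 24 cortical sites, and the 6 common ones averaged 6.65% in hippocampus, 2.97% in cerebellum and 7.40% in cortex. Arhgap5, a GTPase-activating protein gene, had 5.41% in hippocampus and 1.18% in cerebellum at 1 of its 4 sites, while the other 3 were higher in cerebellum. The transcription factor gene Mef2a had 8.57% in hippocampus and 2.41% in cerebellum, and the RNA-binding protein gene Tial1 had 7.89% in hippocampus and 2.25% in cerebellum. Pkp4, a gene of cell junctions, had 5.56% in hippocampus and 1.71% in cerebellum, and the calcium sensor gene Hpcal1 had 7.14% in hippocampus and 2.25% in cerebellum.

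Beside Gria1 and Kctd12, the largest ratios toward cerebellum were in Dner, Cdk14, Rab11a and Camk2a. Dner, the gene of a Notch ligand of Purkinje cells, had 2.86%, 1.20% and 2.36% at its 3 sites in hippocampus, against 15.72%, 9.09% and 4.08% in cerebellum. Each of the 3 Dner sites was higher in cerebellum, and they lie 11 to 34 nt from a cortical one. The cyclin-dependent kinase gene Cdk14 had 1.3% in hippocampus and 7.69% in cerebellum, and Rab11a, a small GTPase of recycling endosomes, had 1.27% in hippocampus and 6.45% in cerebellum. Camk2a, which encodes a subunit of the calcium- and calmodulin-dependent kinase of the postsynaptic density, had 1.25% in hippocampus and 6.25% in cerebellum. Its 19 sites common to all regions averaged 3.94% in hippocampus, 8.58% in cerebellum and 4.03% in cortex.

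The sites lie toward the 3′ ends of genes, as listed sites do in general. The median distance to the annotated 3′ end was 1162 nt (interval 1060 to 1291) for the 736 sites inside the RefSeq span of their gene. It was 1386 nt at sites listed in all 3 regions and 1515 nt over all listed sites. Within 1000 nt of the end were 44.3% (40.7 to 48.0), against 36.6% of all listed sites, and within 5000 nt 93.1%, against 87.0%. The distances are along the genome and can include introns. The median was 955.5 nt (603 to 1462) in genes with no cortical site and 1187.5 nt (1076 to 1326) in genes with other ones, intervals that overlap. Of the 511 genes, 505 are annotated as protein-coding and 3 as long noncoding. Transcript part and sequence around these sites were not analysed here.

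Gene lists were counted against 2 backgrounds: 30.2% of genes with a site in both hippocampus and cerebellum had one missing from cortex (511 of 1692), and 13.1% of shared sites were missing. A gene with more shared sites has more chances to hold a missing one. The gene counts of lists with many sites per gene are therefore not comparable with 30.2%. Of the 26 lists with at least 10 shared sites, 2 had an interval above the 13.1% of sites, 2 had one below it and 22 included it. The missing share also falls as levels rise, and the lists were not matched for the levels of their shared sites. The intervals were not adjusted for the number of lists. Lists and members were chosen with earlier results known, so a share away from the background is a description and no test of a list was made.

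**Figure D5:**
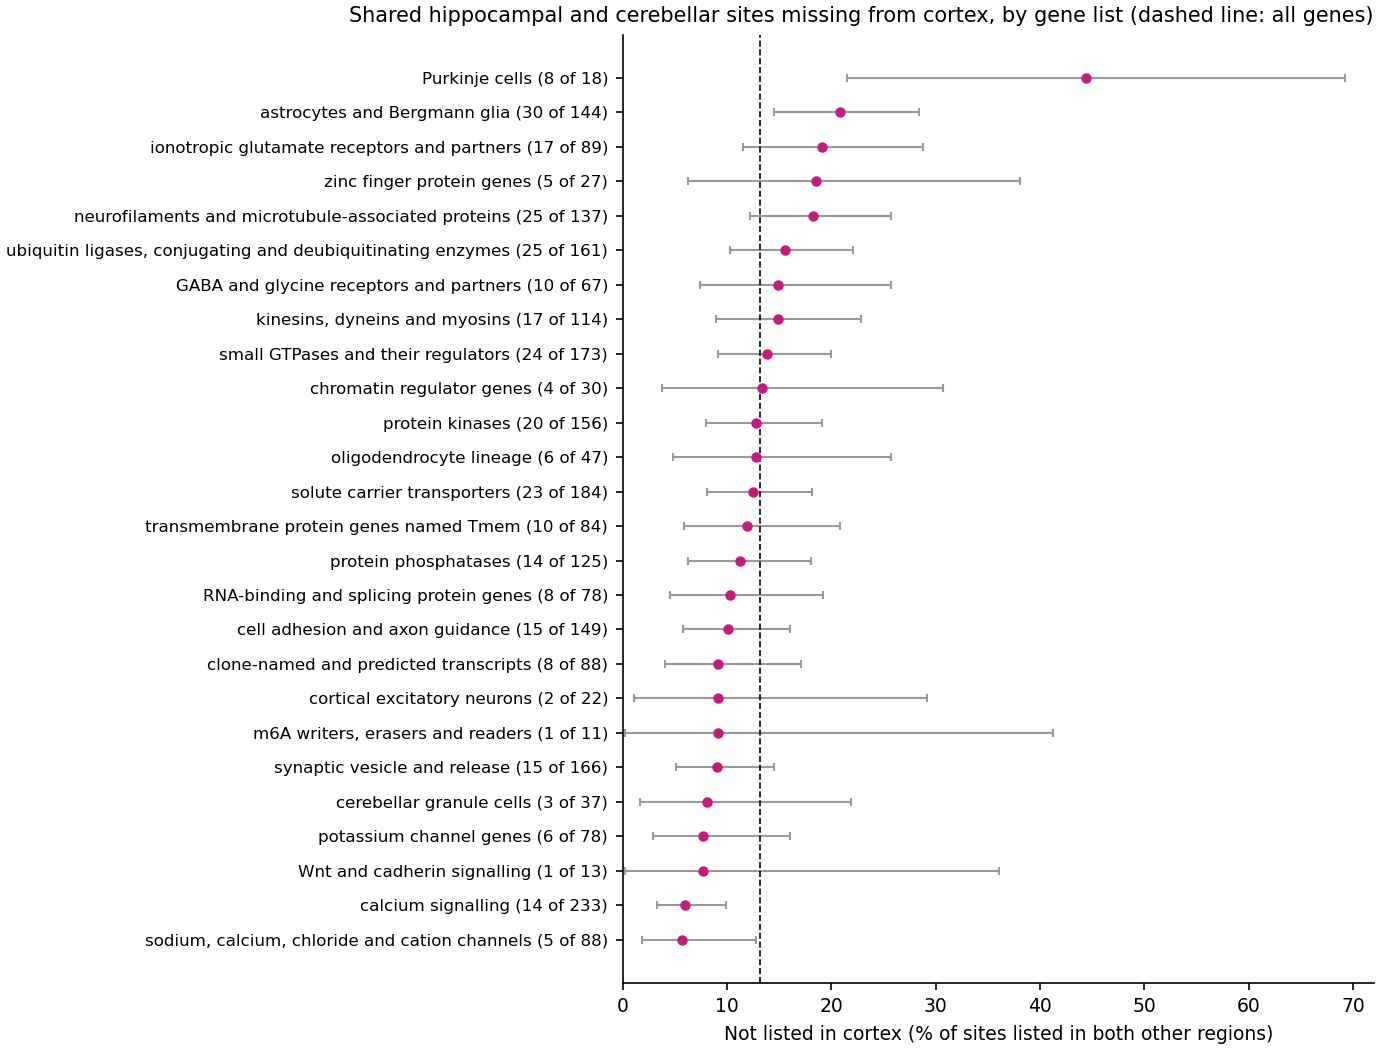
Share of sites listed in hippocampus and cerebellum that cortex did not list (horizontal axis, percent, with exact 95% intervals over sites), by gene list, with counts in parentheses; lists with under 10 shared sites are not drawn. The dashed line is the 13.1% over all genes; the intervals of the Purkinje cell and of the astrocyte and Bergmann glia lists lie above it and those of calcium signalling and of sodium, calcium, chloride and cation channels below it.

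Markers of astrocytes and of Bergmann glia, the radial astrocytes of the cerebellum, had 30 of 144 shared sites missing from cortex (20.8%, interval 14.5 to 28.4), in 11 of 22 genes. The levels split evenly, 15 higher in hippocampus and 15 in cerebellum, with medians of 2.16% in hippocampus and 2.31% in cerebellum. Aqp4, the water channel of astrocyte endfeet, had 6 of them, and the highest had 11.32% in hippocampus and 10.22% in cerebellum, 8 nt from a cortical site. Gja1, which encodes connexin 43, had 5, of which 4 were higher in hippocampus and the one at position 56389918 of chromosome 10 had 12.24% in hippocampus and 12.20% in cerebellum. At the 8 Gja1 sites common to all regions the means were 4.19% in hippocampus, 4.99% in cerebellum and 4.63% in cortex. The glutamate transporter gene Slc1a2 had 6 sites, with 1.18% to 3.10% in hippocampus against 1.02% to 3.97% in cerebellum, beside 40 sites common to all regions. The missing share thus differed between genes of the list, with 5 Gja1 sites beside 8 common ones and 6 Slc1a2 sites beside 40. The 20.8% was not recomputed with any gene left out. Slc1a3, the transporter gene that Bergmann glia express strongly, had 4, with 1.33% to 2.71% in hippocampus against 1.26% to 3.19% in cerebellum. The other 7 genes, named after their values were seen, were Gfap, Gjb6, Atp1b2, Clu, Gpr37l1, Mlc1 and S100b, with 1 or 2 sites each. S100b, a calcium-binding protein gene, had the highest hippocampal level of the list, 12.99%, with 7.17% in cerebellum.

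Purkinje cell markers had 8 of 18 shared sites missing from cortex (44.4%, interval 21.5 to 69.2), in 6 of 9 genes. Besides the 3 Dner sites and the Homer3 site they were in Gad2, which encodes a GABA-synthesising enzyme, with 3.68% in hippocampus and 3.03% in cerebellum, and in Itpr1, the inositol trisphosphate receptor gene, with 1.72% in hippocampus and 1.06% in cerebellum. The other 2, named after their values were seen, were Rgs8, a regulator of G-protein signalling with 3.12% in hippocampus and 12.11% in cerebellum, and Pcp4, with 1.34% in hippocampus and 1.62% in cerebellum. Rgs8 had 57 cerebellar sites, 1 in hippocampus and 1 in cortex. Gad2 and Itpr1 are not confined to Purkinje cells, and Pcp4 is also on the list of cortical excitatory neuron markers. All 8 sites are listed in hippocampus too, and expression was not measured. Granule cell markers had 3 of 37 (8.11%, 1.70 to 21.9), in Kcnd2 and in the transcription factor gene Etv1, all higher in hippocampus. Markers of hippocampal fields had 0 of 2 shared sites missing, endothelial and mural markers 0 of 9, and microglial markers had no shared site. Oligodendrocyte lineage markers had 6 of 47 (12.8%, 4.83 to 25.7), 3 of them in Ptprz1.

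Glutamate receptor genes and their partners had 17 of 89 shared sites missing from cortex (19.1%, interval 11.5 to 28.8), in 7 of 16 genes, and 15 of the 17 were higher in cerebellum. After Gria1 came Gria2, with 3 sites at 1.34%, 2.61% and 1.65% in hippocampus, against 2.56%, 5.15% and 2.58% in cerebellum, and Gria3, with 1.48% and 1.79% in hippocampus against 3.85% and 1.59% in cerebellum. Shank1, a scaffold of the postsynaptic density, had 3 sites at 1.34%, 1.1% and 2.10% in hippocampus, against 1.18%, 2.61% and 2.20% in cerebellum. Genes of GABA and glycine receptors and partners had 10 of 67 (14.9%, 7.40 to 25.7), in 7 of 13 genes, with 9 of the 10 higher in cerebellum. Nlgn2, an adhesion protein gene of inhibitory synapses, had 2 sites at 1.38% and 1.41% in hippocampus, against 1.55% and 2.53% in cerebellum. Over all 746 sites 64.1% were higher in cerebellum, and whether the receptor lists differ from that was not tested.

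Neurofilament and microtubule-associated protein genes had 25 of 137 (18.2%, interval 12.2 to 25.7), in 10 of 20 genes, 15 of them higher in cerebellum. Map4, which binds microtubules, had 5 sites with 1.58% to 3.79% in hippocampus against 1.33% to 3.12% in cerebellum, and Map1b had 3, with 1.65% to 2.21% in hippocampus against 1.26% to 2.54% in cerebellum. Kinesin, dynein and myosin genes had 17 of 114 (14.9%, 8.93 to 22.8), in 9 of 15 genes, 13 higher in cerebellum. Dynlt3, a dynein light chain gene, had 3 sites at 4.62%, 7.20% and 2.75% in hippocampus, against 6.10%, 7.83% and 5.08% in cerebellum.

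Calcium signalling genes had 14 of 233 (6.01%, interval 3.32 to 9.88, below 13.1%), in 11 of 31 genes. Atp2a2, the calcium pump of the endoplasmic reticulum, had 3 of them at 3.81%, 2.26% and 2.03% in hippocampus, against 10.84%, 5.15% and 4.54% in cerebellum. Synaptic vesicle and release genes had 15 of 166 (9.04%, 5.15 to 14.5, which includes 13.1%), in 8 of 29 genes, and 7 of the 15 were those of Doc2b. Sodium, calcium, chloride and cation channel genes had 5 of 88 (5.68%, 1.87 to 12.8, below 13.1%), 2 of them in the chloride transporter gene Clcn3 with 6.15% and 1.84% in hippocampus against 13.59% and 2.68% in cerebellum. Of the m6A machinery, the reader gene Ythdf2 had 1 site, with 1.44% in hippocampus and 1.45% in cerebellum, among 11 shared sites of 4 genes.

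The shares of the remaining lists ranged widely where shared sites were few, and the intervals of those with at least 10 shared sites include 13.1%. Solute carriers had 23 of 184 (12.5%), small GTPases and their regulators 24 of 173 (13.9%), ubiquitin enzymes 25 of 161 (15.5%), protein kinases 12.8% with 20 sites, phosphatases 14 of 125 (11.2%), RNA-binding proteins 8 of 78 (10.3%) and cell adhesion genes 15 of 149 (10.1%). Potassium channel genes had 6 of 78 (7.69%), genes named Tmem 10 of 84 (11.9%), clone-named transcripts 8 of 88 (9.09%), chromatin regulators 4 of 30 (13.3%), zinc finger genes 5 of 27 (18.5%), and Wnt and cadherin genes 1 of 13 (7.69%). Markers of cortical excitatory neurons had 2 of 22, in Camk2a and Pcp4, and markers of inhibitory neurons had 1 of 7, in Gad2. Choroid plexus and ependymal markers had 1 of 1, in Enpp2, and immediate early genes 0 of 3. In the phosphatase list 7 sites were higher in hippocampus and 7 in cerebellum, and in the kinase list 7 were higher in hippocampus and 13 in cerebellum. Ppp3ca, a calcineurin subunit gene counted in both the phosphatase and calcium lists, had 5.01% in hippocampus and 3.39% in cerebellum, and was named after its value was seen.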

How the data were processed

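Poly(A) RNA-seq libraries were aligned with STAR 2.7.5 to mm10, per the submitters' processing notes. For each region the authors deposited 1 list of edited sites with gene, position, strand and level, the level as a fraction of reads from 0 to 1, printed here in percent. The sources used here do not give the site caller, its thresholds, its minimum depth or how libraries were pooled. The lists hold no read count, so depth, intervals per site and the spread between animals are unknown.

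Sites were joined on chromosome, position and strand, and a gene counted as having cortical sites when its symbol was in the cortical list. The members and the 32 gene lists were chosen with earlier results of these data known, and some name patterns of the lists were corrected after the matched symbols were seen. Shares have exact Clopper-Pearson intervals and medians have intervals from exact order statistics, at 95%. No test of a difference was made. Levels at least 2-fold apart were counted as unequal. The genes named were the 12 with most sites in each class, the 10 sites with the highest lower level, 6 sites with the most unequal levels in each direction, the 6 farthest from a cortical site with at least 2% in both regions and up to 4 genes a list; others are said to be named after their values were seen. RefSeq genes of GRCm38.p6 matched 3693 genes (3679 by symbol and 14 by synonym), 509 of the 511 genes among them. At 63 listed sites inside RefSeq promoter windows of that assembly the position held a C preceded by an A; 0 of them are among the 746 sites, so no sequence is shown. The scripts were tested on simulated data and ran in Python 3.11.15 with scipy 1.17.1, pandas 2.3.3, numpy 2.4.6 and matplotlib 3.10.9. Alternatives changed the distance at which a cortical site counts, the minimum level, merging, the gene rule, 1 value per gene and scaling.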

Additional observations from a re-analysis of the deposited data

How the results depend on the processing

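Of 34 alternative values, 22 stayed close to the ones reported and 12 moved. A change of direction was looked for only in the median log2 ratio, which stayed negative in each alternative. Counting a cortical site within 50 nt as present left 377 sites, 15.1% of them in genes with no cortical site; within 10 nt it left 630. A minimum level in both regions left 327 sites at 2%, 49 at 5% and 9 at 10%, with 13.5%, 24.5% and 55.6% of them in genes with no cortical site, and the median log2 ratio of hippocampus over cerebellum was −0.16 at the 5% minimum and −0.040 at the 10% minimum. Asking for 2 or more cortical sites in a gene put 14.9% of sites in the class without. Scaling the regions to the same median, a log2 shift of 0.06, put 39.7% of sites higher in hippocampus. Leaving out sites at 35% or more left all 746, since none reaches it, so the number of sites, their levels and their ratio could not move. No paired analysis was possible because each region's list pools its libraries into 1 level per site, although the animal numbers are shared between regions. For the same reason no library could be left out. Keeping only sites with an A before the edited C was not run, since no genome sequence was used. Depth at each site is unknown, so no limit can be given for the cortical level of a site that cortex did not list.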
